A study of Mus musculus with 4 samples.

Results

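The cytosolic ribosomal protein genes, which encode the proteins of the ribosome that translates nuclear mRNAs, were chosen by name. They are those whose symbol, found once in each of the 2 deposited tables, is Rpl or Rps followed by a number with at most 1 suffix letter a, l or x (and a digit, as in Rps3a1), together with Rplp0, Rplp1, Rplp2 and Rpsa. S6 kinase genes and symbols ending in -ps were left out. This gave 82 of 22554 genes, 50 of the 60S and 32 of the 40S subunit. They cover 74 of the 80 standard proteins. The rest were not chosen because their names are repeated in 1 table, as for Rpl34 and Rpl37, or do not follow the pattern, as for Fau and Rack1. The other 8 chosen genes are related copies such as Rpl22l1 and Rps27l. Among them is Rpl32l, which GENCODE M21 annotates as a processed pseudogene and which is counted here with the 60S genes.

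The cytosolic ribosome of mammals is built from a small (40S) and a large (60S) subunit, and each subunit joins ribosomal RNA to a fixed set of proteins. Nearly every one of these proteins is present in a single copy per ribosome. Most of the mRNAs begin with a C followed by a run of pyrimidines, the terminal oligopyrimidine (TOP) start, through which mTOR signalling and the RNA-binding protein LARP1 control their translation. Ribosomal protein genes are known for their large number of processed pseudogenes, which are copies of the mRNA inserted elsewhere in the genome.

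Messenger RNA was measured in 4 libraries of RAW264.7, a transformed mouse macrophage line. The 2 mock libraries (RAW MOCK) come from RAW264.7 cells without tumour cells, and the 2 coculture libraries (RAW CT26) from RAW264.7 cells cocultured with CT26, a mouse colon carcinoma line. Replicate 1 of both groups stands in 1 table and forms pair 1, and replicate 2 of both groups stands in the other table and forms pair 2. No source used here gives the duration or medium of the coculture or the way the macrophages were separated from the tumour cells.

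Values are FPKM, which count sequenced fragments relative to gene length and library size. Depth, estimated from the lowest values, was about 14700000 and 15600000 reads in mock 1 and 2 and 15600000 and 12100000 reads in coculture 1 and 2. Of 15 macrophage markers, 14 reached 1 FPKM in at least 2 libraries, and the exception was Mertk, at most 0.028 FPKM. All 8 epithelial markers were near 0, with sums of 0.0 to 0.14 FPKM in mock and 0.04 to 0.13 FPKM in coculture. Epcam and Krt18 were listed at 0 in all 4 libraries. The 12 mesenchymal and CT26-type markers summed to 3672 and 3675 FPKM in mock against 3686 and 2766 in coculture, nearly all from S100a4 and Lgals1, while the collagen genes Col1a1, Col1a2 and Col3a1 did not exceed 0.0415 FPKM. In bulk samples, fewer cells of a type and less RNA per cell cannot be told apart.

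Some of these genes have near-identical copies elsewhere in the genome. The first 60 coding bases of Rps27, of its retrocopy Rps27rt and of its paralog Rps27l are shown because the first pair are identical over all 252 coding bases. Capitals mark a base of Rps27l or Rps27rt that differs from Rps27 at that position, and the sequences are from GENCODE M21 (GRCm38).
Rps27: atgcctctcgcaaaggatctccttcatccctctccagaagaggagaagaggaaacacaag
Rps27rt: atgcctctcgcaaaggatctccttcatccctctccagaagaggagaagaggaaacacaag
Rps27l: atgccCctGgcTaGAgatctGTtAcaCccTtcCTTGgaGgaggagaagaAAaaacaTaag
Rps27l differs from Rps27 at 18 of these 60 bases and at 60 of the 252. In pair 1, Rps27rt was listed at 628 FPKM in mock against 711 in coculture, and Rps27 at 17.9 and 18 FPKM. In pair 2, Rps27rt was listed at 0 in both libraries, and Rps27 at 5.4 FPKM in mock against 6.4 in coculture. Rps27l stood at 253 and 288 FPKM in pair 1, then 157 and 152 in pair 2. So the gene with a sequence of its own was listed well above the standard gene in all 4 libraries, and the identical pair were listed differently in the 2 tables.

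Start sites with a TOP run are shown for 6 genes whose values are described below and for Rpl15, whose run of 13 bases is the longest of these. Other genes described below, such as Rpl4, Rpl41 and Rps15, have a window without such a run within 5 bases of the annotated start. Each line runs from 15 bases before the RefSeq start to 15 bases from it (build GRCm38.p6), and capitals mark the TOP run, a C followed by at least 4 pyrimidines beginning within 5 bases of the start.
Rps2 (chr17:24720048-24720077, plus strand): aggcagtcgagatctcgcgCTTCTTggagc
Rpl12 (chr2:32961697-32961726, plus strand): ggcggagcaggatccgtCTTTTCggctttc
Rps23 (chr13:90923107-90923136, plus strand): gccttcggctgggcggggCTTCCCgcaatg
Rpl38 (chr11:114668565-114668594, plus strand): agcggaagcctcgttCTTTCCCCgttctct
Rpl7a (chr2:26910792-26910821, plus strand): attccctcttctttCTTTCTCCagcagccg
Rps18 (chr17:33955651-33955680, minus strand): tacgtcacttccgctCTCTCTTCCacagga
Rpl15 (chr14:18270972-18271001, minus strand): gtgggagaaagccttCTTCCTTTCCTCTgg
RefSeq start windows were matched for 62 of the 82 genes, and 29 of the 62 had a TOP start in at least 1 window. A pyrimidine run farther from the annotated start, as in the Rpl4 window, was not counted. Genes without a match may therefore still have a TOP start. Counted over windows, 30 of 73 (41.1%) held it, against 18.3% of all 32851 windows of the same length. The ETS motif CCGGAAG, searched on both strands of the 300 bases, was in 34.2% of the ribosomal protein windows and 8.9% of all windows. AAGATGGC, part of a YY1-type motif, was in 8 of the 73 windows and in 2.7% of all windows, and the TATA motif TATAAA in 8 of the 73 and in 13.6%. The pyrimidine word CTTTCC was in 50.7% and 26.6%. CTTTCC can overlap a TOP run. A match is a description of the letters and not evidence of a bound site.

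Coculture of RAW264.7 cells with CT26 cells gave no ribosomal protein gene past the test in either direction. In pair 1 most of the genes were listed slightly higher in coculture, and in pair 2 most were listed slightly lower. The median difference was 0.19 in pair 1 and -0.13 in pair 2 (log2(FPKM + 1), coculture minus mock), and 0.04 over both pairs. The test was limma over the 10202 genes that reached 1 FPKM in 2 or more libraries, with the pair as a block, and 78 of the 82 genes reached that filter.

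Of the 78, limma called 0 (adjusted p under 0.05 by the Benjamini-Hochberg method over all genes tested), against 0.127% of all genes tested called higher and 0.0% called lower. The lowest limma adjusted p among them was 0.371. At an unadjusted p under 0.05, 0 of 78 were counted, against 14.7% of all genes tested. Limma's 95% interval of the difference included 0 for 78 of 78. On this scale it lay inside a 2-fold change either way for 78 and inside a 1.5-fold change for 60. These bounds say little for a pair listed near 0, where the added 1 keeps the difference small. Such pairs were pair 2 of Rpl26 (0 FPKM in both libraries) and of Rpl30 (0.304 and 0.261 FPKM), and pair 1 of Rpl39 (0.661 and 0.782 FPKM). The lowest bound was -0.96, for Rpl7a, and the highest 0.86, for Rpl29. With 2 pairs, the fit has 1 residual degree of freedom beside 3.43 from the prior, so these intervals lean on the spread of other genes. The labels do not say that the replicates came from separate cultures, and p-values then measure only the spread between these samples, which may be technical.

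The pairs differed in direction for most of the genes. In pair 1, 74 of 78 were higher in coculture, against 37.4% of all genes tested, and in pair 2, 62 of 78 were lower, against 57.9%. Higher in pair 1 and lower in pair 2 were 61 of 78, against 15.7% of all genes tested. The remainder were 13 higher in both pairs (21.5% of all genes), 1 lower in both (42.2%), 2 lower in pair 1 and higher in pair 2 (20.1%), and Rpl26, listed at 0 in both libraries of pair 2. On the log2(FPKM + 1) scale, 0 of 78 were at least 1.5-fold higher in both pairs (2.4% of all genes tested) and 0 were 1.5-fold lower in both (2.17%). Within pair 1, 0 of 78 were at least 1.5-fold higher (4.46% of all genes), and within pair 2, Rpl7a and Rpl38 were at least 1.5-fold lower (6.38%). The median of all genes tested was -0.09 in pair 1 and -0.06 in pair 2, so the ribosomal protein genes lay 0.28 above it in pair 1 and on its lower side by -0.08 in pair 2. The pair medians kept their signs under every scaling tried, while the split of the mean differences did not: 51 of 78 were above 0 with the values as deposited and 34 of 78 after rescaling each library to a common total.

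**Figure D1:**
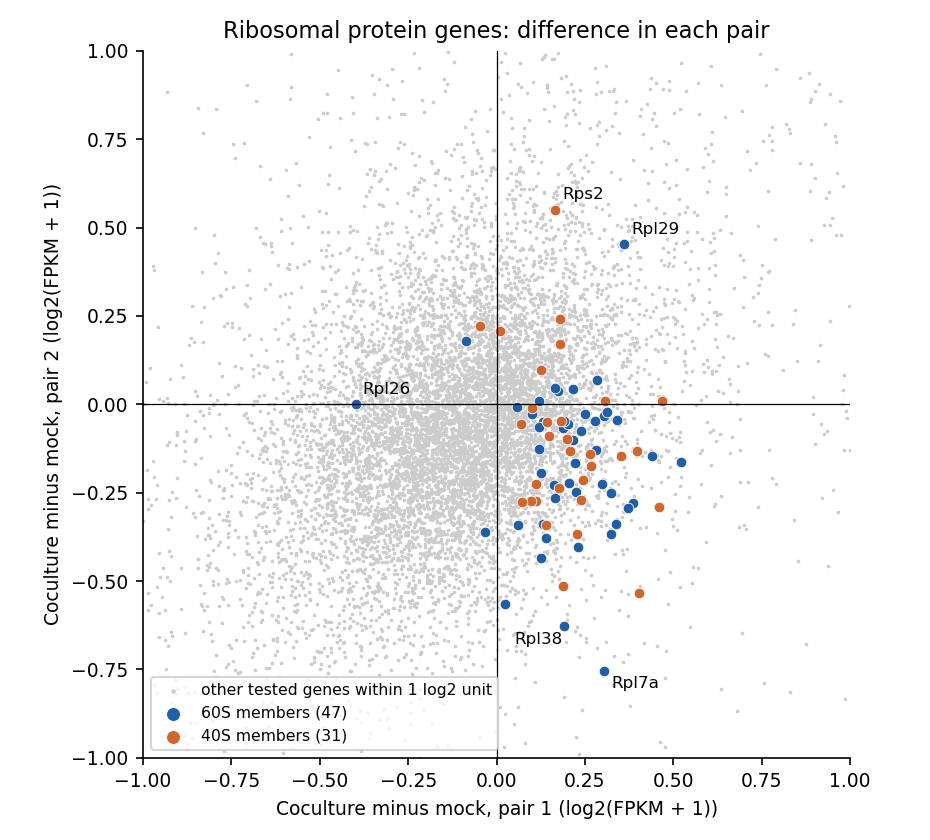
Difference between coculture and mock on the log2(FPKM + 1) scale in pair 1 (x axis) and pair 2 (y axis). Blue and orange points are the 47 60S and 31 40S genes tested, and grey points other genes within 1 log2 unit. Most coloured points lie at the lower right, a field that holds 61 of the 78.

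The subunits gave similar medians. The 47 tested 60S genes had medians of 0.205 and -0.13 in pairs 1 and 2, and 38 of them were higher in pair 1 and lower in pair 2. The 31 tested 40S genes had medians of 0.18 and -0.13, and 23 had that pattern. The interquartile range of the 78 genes was 0.158 wide in pair 1 and 0.248 in pair 2, and that of all genes tested 0.388 and 0.408.

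**Figure D2:**
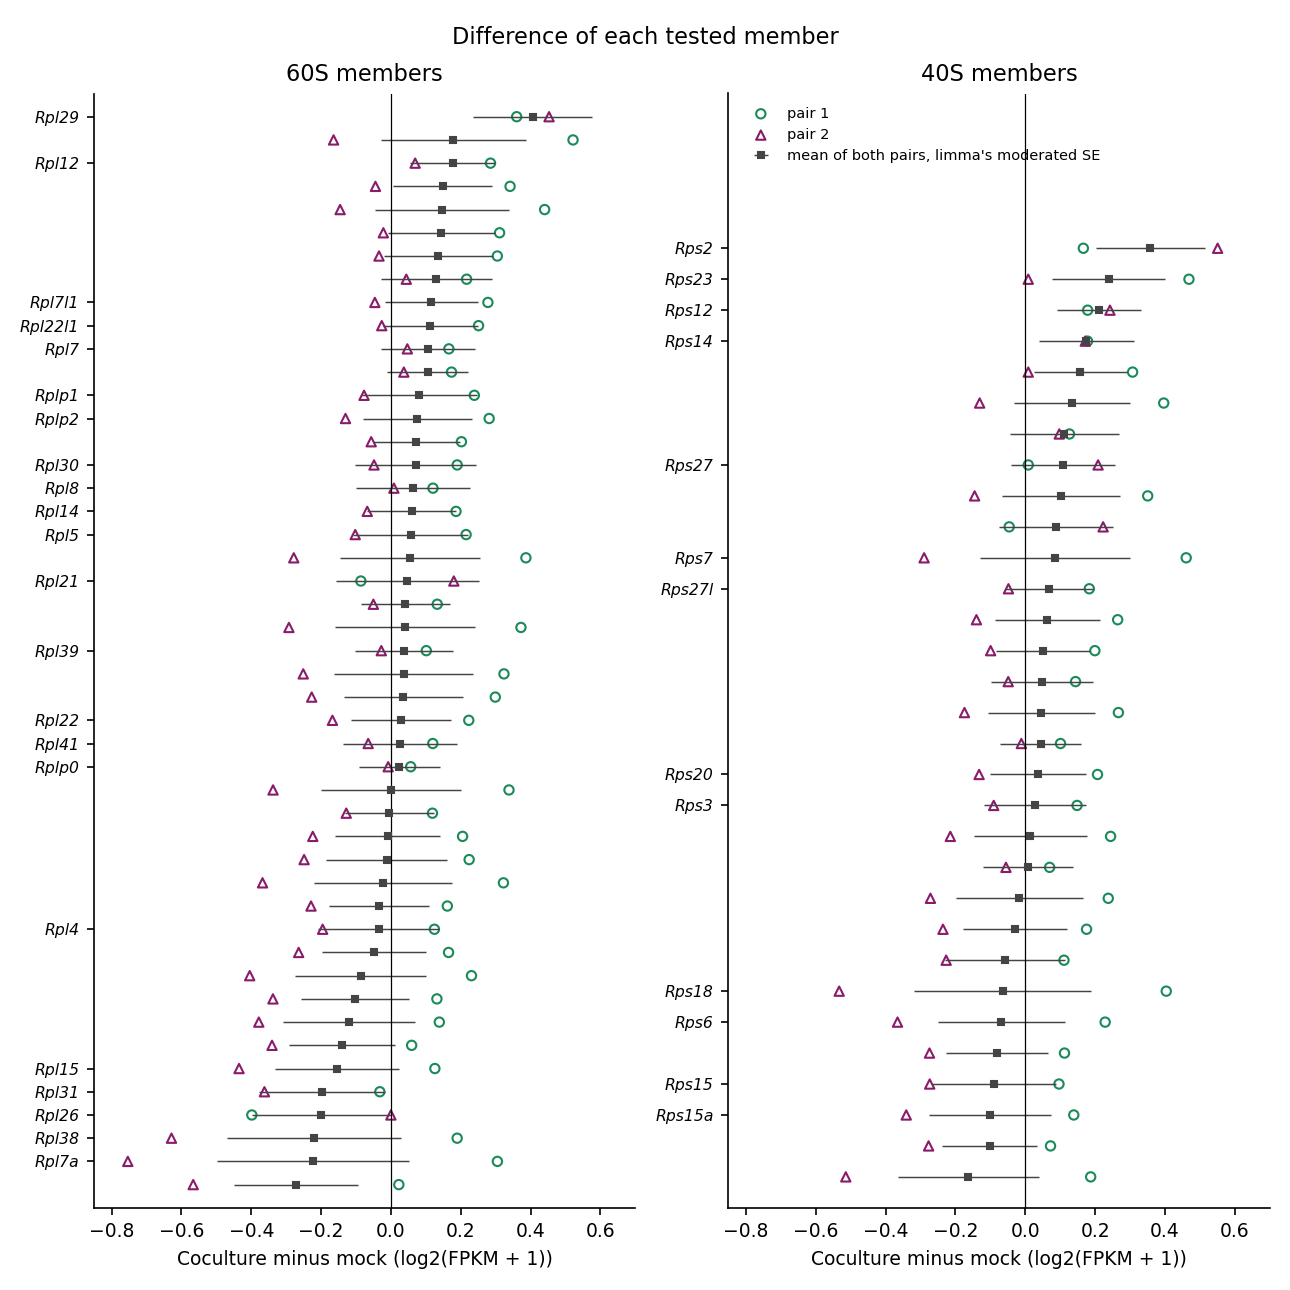
Difference between coculture and mock (log2(FPKM + 1)) of each of the 78 tested genes, ordered by the mean of both pairs, with the names of some of the genes described in the text. Squares with bars are the mean and limma's moderated SE, circles pair 1 and triangles pair 2. Circles lie to the right of 0 for 74 genes and triangles to the left for 62, and the means range from -0.27 to 0.41.

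Summed over the 82 genes, ribosomal protein FPKM made up 3.54% of the library in mock 1 and 3.82% in coculture 1. In pair 2 they made up 5.01% in mock and 4.41% in coculture. The mean share was 4.28% in mock and 4.11% in coculture, and the groups overlap, because both libraries of pair 2 lie above both of pair 1. An exact two-sided permutation test gave p = 1.0, and with 2 libraries a group it could not go below 0.33. The 60S genes alone took 1.88% and 2.04% in pair 1 and 2.76% and 2.44% in pair 2, and the 40S genes 1.66% and 1.78% in pair 1 and 2.26% and 1.97% in pair 2. Both subunits were thus higher in the coculture of pair 1 and lower in that of pair 2. Without the 5 most abundant genes the shares were 2.09% and 2.30% in pair 1 and 3.18% and 2.80% in pair 2. A share also depends on other abundant genes: the macrophage lysozyme gene Lyz2 alone was listed at 3529 and 10287 FPKM in the mock and coculture libraries of pair 2, and at 7088 and 6585 in those of pair 1. With the 100 most abundant other genes taken out of the total, the ribosomal protein share was 4.39% and 4.83% in pair 1 and 6.21% and 5.73% in pair 2, so the order within each pair was as before.

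**Figure D3:**
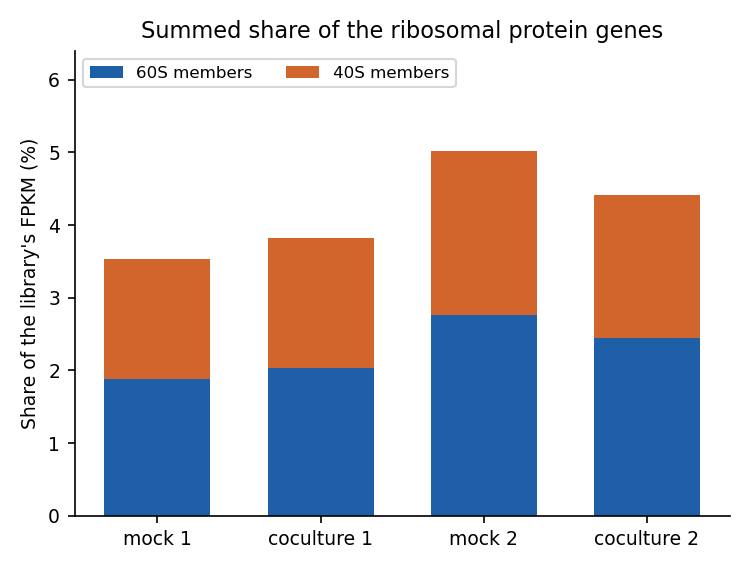
Share of each library's summed FPKM listed for ribosomal protein genes, in percent, with 60S genes in blue and 40S genes in orange stacked above them. The share is higher in coculture than mock in pair 1 (3.82% against 3.54%) and lower in pair 2 (4.41% against 5.01%).

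Among the 60S genes, the most abundant were Rpl8, Rpl41 and Rpl4, which encode proteins of the subunit's core and, for Rpl41, its smallest protein. Listed values of Rpl8 were 1436 and 1429 FPKM in mock 1 and 2, against 1561 and 1438 in coculture 1 and 2, a difference of 0.06 ± 0.16 (n = 2 pairs, limma's moderated SE, with a limma adjusted p = 0.874). Rpl41 stood at 982 and 1741 FPKM in mock against 1067 and 1664 in coculture, and Rpl4 at 1103 and 1591 FPKM in mock against 1203 and 1389 in coculture. The Rpl8 groups do not overlap, although 2 of their values are nearly equal, while those of Rpl41 and Rpl4 overlap and differ more between the tables than between mock and coculture.

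The P-stalk proteins, encoded by Rplp0, Rplp1 and Rplp2, form the flexible arm of the 60S subunit that recruits translation factors. Rplp1 was the highest of the 3, at 851 and 1017 FPKM in mock against 1005 and 964 in coculture. Rplp2 stood at 293 and 378 FPKM in mock against 356 and 345 in coculture. Rplp0 stood at 209 and 276 FPKM in mock against 217 and 274 in coculture. All 3 were higher in coculture in pair 1 and lower in pair 2, and Rplp0, often used as a reference gene, had the smallest gap between the pairs, 0.06 against -0.01.

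Rpl29 had the largest mean difference of all 78. It stood at 6.88 and 1.52 FPKM in mock against 9.11 and 2.45 in coculture, a difference of 0.41 ± 0.17 (interval -0.05 to 0.86, limma adjusted p = 0.371). It was higher within each pair, though the lower coculture value lies below the higher mock value. Its pair 2 values rest on an estimated 27 and 33 reads.

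Rpl12, a protein of the stalk base, stood at 64.8 and 33.3 FPKM in mock against 79.2 and 35 in coculture, so it differed by 0.18 ± 0.12 (limma adjusted p = 0.545). Rpl31 was the only gene of the 78 lower in both pairs, at 5.30 and 6.07 FPKM in mock against 5.16 and 4.50 in coculture, so its mean difference was -0.20 ± 0.18 (limma adjusted p = 0.648). Most of that difference came from pair 2 (-0.36, against -0.03 in pair 1).

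Rpl7a showed the largest gap between the pairs. It stood at 26.1 and 32.5 FPKM in the mock and coculture libraries of pair 1, and at 92.2 and 54.3 FPKM in pair 2, differences of 0.30 and -0.75. Rpl38 stood at 5.29 and 6.18 FPKM in pair 1, then 8.32 and 5.03 in pair 2, the last pair of values from an estimated 70 and 33 reads. Rpl7a and Rpl38 thus went with most of the 60S genes in each pair, but by more in pair 2.

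Among the 40S genes, Rps15 was the most abundant. Rps15 stood at 1336 and 1193 FPKM in mock against 1428 and 986 in coculture. Its coculture libraries were the highest and the lowest of the 4.

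Rps2, a protein at the entry of the mRNA channel, had the largest mean difference of the subunit. It stood at 27.4 and 7.62 FPKM in mock against 30.8 and 11.6 in coculture, a difference of 0.36 ± 0.16 (interval -0.06 to 0.78, limma adjusted p = 0.384). Rps14 stood at 733 and 537 FPKM in mock against 829 and 605 in coculture, 0.18 and 0.17 in the pairs, which was the closest agreement among the higher genes named here. It differed by 0.17 ± 0.14 (limma adjusted p = 0.589). Rps12 stood at 34.6 and 13.6 FPKM in mock against 39.3 and 16.3 in coculture, a difference of 0.21 ± 0.12. Rps23, a decoding-centre protein, stood at 23.2 and 19.8 FPKM in mock against 32.5 and 19.9 in coculture, so its difference came from pair 1.

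Rps18 and Rps7 had the largest gaps between the pairs in the small subunit. Rps18 stood at 20.4 and 27.3 FPKM in the mock and coculture libraries of pair 1 and at 23.5 and 15.9 FPKM in pair 2. Rps7 stood at 15.4 and 21.5 FPKM in pair 1, then 32.5 and 26.4 in pair 2. For each, the pair 1 difference was 0.40 or more and the pair 2 difference was negative, -0.53 for Rps18 and -0.29 for Rps7.

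Paralogs are a second gene for the same ribosomal position, or a relative with another role. Rpl22l1, whose coding sequence is 69.3% identical to that of Rpl22, stood at 23.1 and 23.4 FPKM in mock against 27.6 and 22.9 in coculture. Rpl22 itself stood at 116 and 112 FPKM in mock against 136 and 99.5 in coculture. Rpl7l1, 57.1% identical to Rpl7 in coding sequence, stood at 104 and 83.8 FPKM in mock against 126 and 81.2 in coculture, where Rpl7 stood at 537 and 564 FPKM and at 602 and 583 FPKM. Rps27l, known as a p53 target, differed by 0.07 ± 0.13 (limma adjusted p = 0.830). All 3 paralogs were higher in pair 1 and lower in pair 2, as were most of the standard genes. Rpl3l, Rpl10l, Rpl39l and Rps4l stayed below the filter, with no value above 0.954 FPKM in any library.

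Levels of the genes differed widely although most of their proteins are needed in equal numbers. The mean over the 4 libraries ranged from 1.61 FPKM for Rpl21 to 1466 FPKM for Rpl8, 912-fold apart, with a median of 52.9 FPKM. Of the 78 genes, 5 had a mean of at least 1000 FPKM, 29 of at least 100 FPKM and 10 under 10 FPKM. FPKM is a level per length, but the lengths behind it are not stated in the sources used here.

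The listed level of a gene was lower where more of its sequence also occurs in other annotated genes. For each gene, the 100-base words of 1 coding transcript were looked up, on both strands, in the transcripts of all other GENCODE M21 genes, pseudogenes included. Positions in the genome were not compared, so words shared with an overlapping gene at the same place count too. Of the 77 tested genes with such a transcript, 21 shared under 20% of their words, and their median mean level was 244 FPKM. The 35 genes sharing 20 to 60% had a median of 33.0 FPKM, and the 21 sharing at least 60% a median of 25.9 FPKM and no mean above 76.9 FPKM. Across the 77 genes, which are not independent replicates, shared words and log2 level correlated at -0.54 (Pearson's r) and -0.53 (Spearman's rho). With 50-base words these were -0.45 and -0.43. Rpl8 shares 1.73% of its words with 1 other gene, and Rpl5, at 91.1%, had a mean of 8.55 FPKM. Rps15a and Rpl21 go against the order, with 3.03% and 16.7% shared and means of 13.6 and 1.61 FPKM. The percentage depends on the transcript used, with the longest taken among those annotated equally well. That of Rps15a has 5179 bases, 390 of them coding, and that of Rpl21 has 1856, 480 of them coding. Rpl21 shares 294 words with 40 other genes, so a low percentage need not mean little shared sequence. The authors' handling of reads that map to several places is not stated in the sources used here, and its part in these levels was not tested.

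**Figure D4:**
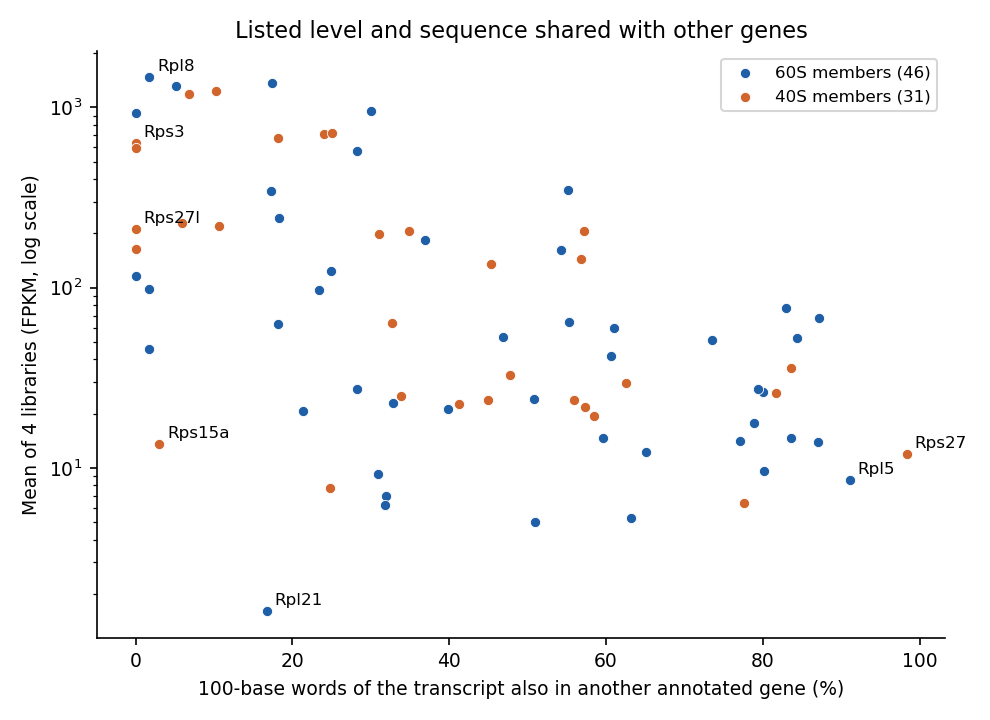
Mean FPKM of the 4 libraries (y axis, log scale) against the percentage of a transcript's 100-base words that also occur in another annotated gene (x axis), for 46 60S and 31 40S genes. No gene sharing at least 60% of its words has a mean above 76.9 FPKM, while the most abundant gene, Rpl8, shares 1.73%.

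The pattern of a higher value in pair 1 and a lower one in pair 2 was seen at each degree of sharing, with medians farther from 0 where more was shared. Genes sharing under 20% of their words had pair medians of 0.14 and -0.065, and 17 of 21 were higher in pair 1 and lower in pair 2. Genes sharing 20 to 60% had medians of 0.217 and -0.145, and 26 of 35 had that pattern. Genes sharing at least 60% had medians of 0.22 and -0.16, and 17 of 21 had the same pattern. Across the 77 genes, the percentage shared correlated with the pair 1 difference at 0.23 (Pearson) and 0.27 (Spearman), and with the pair 2 difference at -0.05 and -0.1. Rps3, which shares no 100-base word with another gene, stood at 588 and 652 FPKM in the mock and coculture libraries of pair 1 and at 676 and 635 FPKM in pair 2. Genes with a TOP start (29) had medians of 0.20 and -0.099, and those with a window but no TOP start (30 tested) 0.18 and -0.155.

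Rows outside the name rule that belong to related sequences were read beside the genes. They were chosen after their values were seen. In pair 2, Rps6-ps4, a pseudogene that holds 651 of the 779 words of Rps6, stood at 1280 FPKM in mock against 1177 in coculture, and Rps6, a target of S6 kinase signalling, at 26.06 and 19.999 FPKM. Rpl14-ps1 stood at 985 and 866 FPKM in pair 2, and Rpl14 at 171 and 163 FPKM. Pseudogene, retrocopy, repeated and unlisted-paralog rows with at least 100 FPKM numbered 8 in pair 1, all 8 higher in coculture, with ratios of 1.06 to 1.20. Rows with identical values, such as Rpl34 with Rpl34-ps1 and Rpl37 with Rpl37rt in pair 1, were counted once. In pair 2 there were 5, with ratios from 0.879 to 1.23, and 4 of the 5 were lower. The exception was Rpl36al, a paralog of Rpl36a, at 291 and 332 FPKM in pair 1, then 285 and 350 in pair 2.

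The 2 tables listed several genes at very different levels, although the same cell line was measured. Mock levels differed more than 2-fold between the tables for 24 of the 78 genes, 15 higher in pair 2 and 9 higher in pair 1. The share of all genes tested with such a gap was not counted, so the count does not set this family apart. Genes outside the family had such gaps too, such as Adnp, higher in mock 1, and Adm, higher in mock 2. Both were picked after their values were seen. Rpl39 stood at 0.661 and 0.782 FPKM in pair 1, then 91.6 and 89.9 in pair 2. Rpl30 stood at 22.5 and 25.8 FPKM in pair 1, then 0.304 and 0.261 in pair 2, and Rpl26 at 21.1 and 15.8 FPKM in pair 1 and at a listed 0 in pair 2. Rps20 stood at 373 and 431 FPKM in pair 1, then 56.7 and 51.6 in pair 2. Within a table the ratio of coculture to mock stayed between 0.747 and 1.48 in pair 1 for the 78 genes, and between 0.589 and 1.61 in pair 2 for the 77 without Rpl26. Which annotation and lengths lie behind each table is not stated in the sources used here, and their part in these gaps was not tested.

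**Figure D5:**
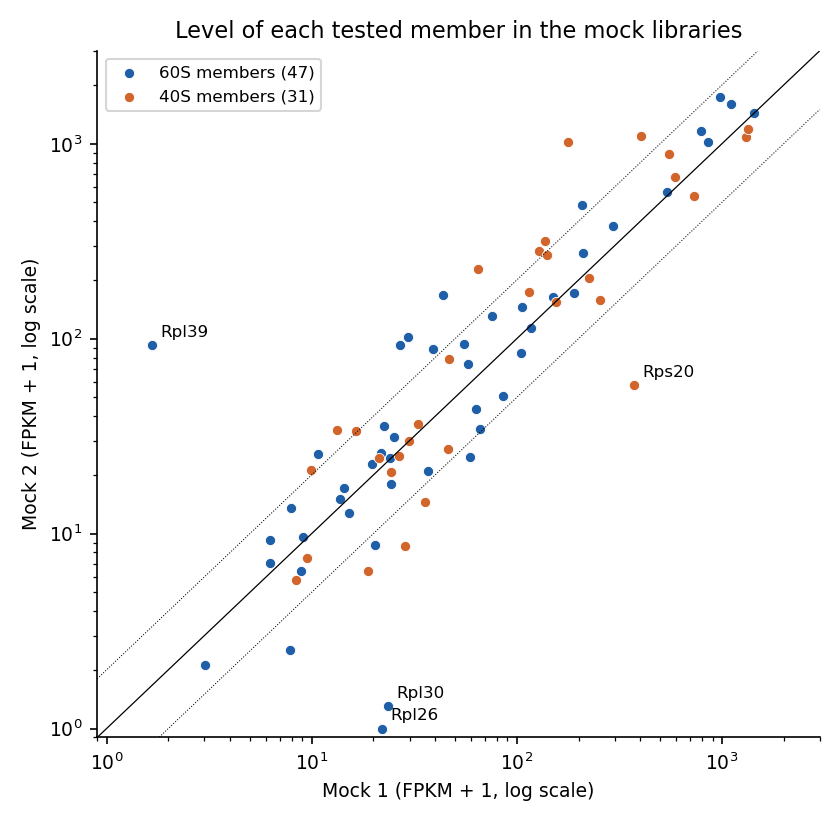
Level of each of the 78 tested genes in mock 1 (x axis) and mock 2 (y axis), both as FPKM + 1 on log scales, with the line of equal levels and dotted lines at 2-fold of FPKM + 1. Rpl39, Rps20, Rpl30 and Rpl26, the labelled genes, lie far from the line.

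Genes around the ribosome were read from lists of the same kind. Of the ribosomal protein genes outside the rule, Fau, Rack1 and Rpl36al were higher in pair 1, and Fau and Rack1 were lower in pair 2. Rack1, a scaffold on the 40S head, stood at 436 and 478 FPKM in pair 1, then 1230 and 1119 in pair 2. Of 19 tested TOP-mRNA translation factors and host genes, such as the elongation factor Eef1a1, 0 were called higher or lower by limma, and 12 were higher in pair 1 and lower in pair 2 (medians 0.13 and -0.12). Eif4b, which assists the helicase of the cap complex, was lower in both pairs at -0.27 ± 0.12 (limma adjusted p = 0.404). The initiation factor list had 0 of 32 called, with medians of 0.16 and 0.016, and Eif6, which keeps the subunits apart, differed by 0.39 ± 0.12 (limma adjusted p = 0.284).

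Ribosome assembly and export factors had 0 of 29 called, with medians of 0.245 in pair 1 and -0.006 in pair 2. Riok3, a kinase of 40S maturation, stood at 24.2 and 25.1 FPKM in mock against 38.9 and 35.6 in coculture, and Gtpbp4, a GTPase of 60S assembly, at 72.7 and 64.9 FPKM and at 102 and 81.5 FPKM. For both, each coculture value lies above each mock value, but neither passed (limma adjusted p = 0.199 and 0.269). Among 20 genes that control TOP mRNAs and ribosome supply, 0 were called. Myc, a transcription factor known to drive ribosome production, stood at 5.16 and 1.03 FPKM in mock against 43.3 and 36.9 in coculture (3.53 ± 0.35, limma adjusted p = 0.0707). Eif4ebp2, a translation repressor inhibited by mTOR, differed by -0.58 ± 0.13 (limma adjusted p = 0.200). Of 17 ribosome quality control and checkpoint genes 0 were called, and Mdm2, whose product is bound by free ribosomal proteins, differed by 0.50 ± 0.11 (limma adjusted p = 0.210).

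Mitochondrial ribosomal protein genes, which serve the separate ribosome of mitochondria, are the list most like this family in name and role. All 78 found were tested and 0 were called. They had pair medians of 0.016 and -0.02, and 19 of 78 were higher in pair 1 and lower in pair 2, where 61 of 78 cytosolic genes were. That difference between the lists is given as counts and was not tested. Mrpl52 had the largest difference among those going 1 way in both pairs, 0.77 ± 0.12 (limma adjusted p = 0.127), from 107 and 71.6 FPKM in mock to 195 and 115 FPKM in coculture.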

How the data were processed

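The authors deposited FPKM in 2 tables, and each holds the mock and the coculture library of 1 replicate number, so coculture and mock were tested within a table. Levels, shares and overlaps of groups that are set across the tables are descriptions, since each table may have its own normalization, and this holds for the permutation test of the share too. The tools were Trim Galore, Subread and featureCounts and the build was named hg38, per the submitters' processing notes, although the gene symbols are mouse symbols. No source used here gives their versions, the annotation, the gene lengths or the handling of multiply mapped reads. Names found once in each table were joined, and the FPKM were used with no further scaling as log2(FPKM + 1), a scale that understates the change of low genes. Genes reaching 1 FPKM in 2 or more libraries were tested two-sided with limma 3.58.1 in R 4.3.3, using lmFit and a trended eBayes prior and a block for the replicate pair. The fit was tested on simulated data. The libraries of a pair deviated together (correlation of deviations from the group means 0.76 over all genes). Depth was estimated from the steps of low FPKM and GENCODE M21 exon lengths, so read numbers are approximate. Sequences are RefSeq's (GRCm38.p6) and GENCODE M21's, and coding identity was taken from global alignments in Biopython 1.88.

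The genes described in full were the 6 highest and up to 6 lowest mean differences among genes going 1 way in both pairs, the 6 most abundant, the 4 largest gaps between the pairs and the tested paralogs with their parent genes. Rpl5, Rpl14, Rpl15, Rpl21, Rpl26, Rpl30, Rpl32l, Rpl39, Rplp0, Rplp2, Rps3, Rps6, Rps15a, Rps20, Rack1 and the marker genes are named outside this rule, after their values were seen. Some genes that the rule picks are not reported here. From each other list, up to 3 genes that differed 1 way in both pairs could be named, by size. The genes and lists were chosen with earlier results of these data known. Alternatives covered the pseudocount, filter, scaling, block, prior and each library left out.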

Additional observations from a re-analysis of the deposited data

How the results depend on the processing

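No ribosomal protein gene passed limma's test under any of the 15 fits, which changed the pseudocount, the filter, the scaling, the block or the prior variance, or left out a library. Unadjusted p-values under 0.05 were found for 2 of them after median centring and for 1 without a trended prior. Over all genes limma called 13, and the count moved by more than 1.5 times under most fits: 22 with a pseudocount of 0.1, 0 with no filter on low values (1620 at an unadjusted p under 0.05), 26 with at least 5 FPKM, 25 after rescaling to a common total, 7 after rescaling to a common total of the other genes, 103 after median centring (85 higher and 18 lower), 46 after quantile normalization, 1 with no trend in the prior variance and 1 with no replicate block. Leaving out 1 library, unblocked and so across the tables, gave 0 in each case (176 to 523 at an unadjusted p under 0.05), with the lone library of a group assumed to vary like the other group. The pairing rests on the shared table, and without the block the ribosomal protein median is the same by construction. That median, 0.04, was -0.01 after either rescaling to a common total, 0.11 after centring and between -0.078 and 0.134 with a library left out. Its sign therefore depends on the scaling. Median centring moved the median of all genes in pair 1 from -0.09 to 0.01. The ribosomal protein median lay 0.175 to 0.301 above the median of all genes in pair 1 and on its lower side in pair 2 by -0.075 to -0.123 over these scalings, pseudocounts and filters, and 51 to 66 genes were higher in pair 1 and lower in pair 2. With at least 10 FPKM in every library, an alternative chosen after seeing the data, 53 of 61 had that pattern. Of 230 values of named genes with all 4 libraries, 220 moved by less than the spread between the pairs or not at all. Fits that changed only the filter, the block or the prior variance cannot move a gene's difference. Their values are among the 220 by construction. With 1 library left out, 44 of 92 moved by more than it, and some changed sign: Rpl29 (0.407) ran from -0.416 to 1.229, Rps2 (0.358) from -0.501 to 1.218 and Rps12 (0.21) from -0.433 to 0.854. Low genes such as Rpl29 and Rpl38 are limited by depth.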
